A study of Mus musculus with 3 samples.

Results

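The 10 genes described here encode enzymes that modify and crosslink collagen: the lysyl oxidases Lox, Loxl1, Loxl2, Loxl3 and Loxl4, the lysyl hydroxylases Plod1, Plod2 and Plod3, and the prolyl 4-hydroxylase catalytic subunits P4ha1 and P4ha2. They were taken by gene symbol, and all 10 were found among the 56833 genes of the deposited table. RNA came from cells of mouse ankle synovium of the genotype Efhd1CreER; Ai9, in which a Cre recombinase tied to Efhd1 switches on the tdTomato reporter, and which were sorted for tdTomato. The labels call them telocytes. Culture lasted 24 h on collagen-coated plates with a soft (0.2 kPa), an intermediate (8 kPa) or a stiff (64 kPa) surface. Genotype, sort, medium and collagen coating were shared by the 3 cultures, and the labels do not say how many mice were pooled or how Cre was induced. Each level had 1 library, so no difference has a replicate check, and an effect of stiffness cannot be told apart from a difference between cultures.

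In the endoplasmic reticulum, prolyl 4-hydroxylases hydroxylate proline so that the collagen triple helix is stable, and lysyl hydroxylases hydroxylate lysine, which provides sites for sugars and for mature crosslinks. Outside the cell, the copper-dependent lysyl oxidases convert lysine and hydroxylysine to aldehydes, from which the covalent crosslinks of collagen and elastin form. Crosslinking raises the stiffness of a matrix, and several of these genes are known targets of the hypoxia-inducible factor HIF.

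The libraries held 25487064 (soft), 28081600 (intermediate) and 26474862 reads (stiff), and markers of the cell state and of other cells differed between them. The tdTomato reporter had 818, 1193 and 2668 normalized counts from soft to stiff. Its log2 ratio of stiff to soft was 1.70 (counting interval 1.59 to 1.82). Efhd1 had 10, 5 and 3 reads, and its ratio of -1.46 lay within counting error (-4.24 to 0.22). The 6 other telocyte markers did not move one way. Cd34 had a ratio of 0.44 on 229 to 310 reads and Vim one of 0.25, against -0.36 for Foxl1 on 181 to 247 reads and -0.20 for Pdgfra on 4991 to 6681 reads. Kit, with 41 to 44 reads, and Gli1, with 8 to 12, were level within counting error. Of 8 fibroblast markers 4 had a stiff to soft ratio above 0 and 4 below, with a median of 0.12. Col1a1 (0.95) and Thy1 (0.37) were the highest of them, and Dcn (-0.44) and Lum (-0.36) the lowest. Of 12 macrophage markers, which a sort for the reporter would be meant to remove, 11 averaged 50 or more normalized counts, and 9 of these 11 had a log2 ratio of stiff to soft of at least 0.5. The other marker, Cd163, had 2, 5 and 9 reads, so none of the 12 was at 0. Their summed level was 29045 normalized counts at 0.2 kPa, 35741 at 8 kPa and 62184 at 64 kPa. The 5 myofibroblast markers were all higher by at least 0.5 on that scale, with sums of 14735, 19090 and 65561. The 7 endothelial markers summed to 57, 79 and 88, the 6 mural markers to 2367, 3277 and 3138, and the 7 chondrocyte and bone markers to 2125, 2611 and 1898. These last 2 sums hide unequal members. Of the 4 mural markers averaging 50 or more, Cspg4 (0.53) and Mcam (0.86) were past 0.5 and 0 were lower by as much. Of the chondrocyte and bone markers, Col2a1 had 209, 330 and 576 normalized counts (1.46) and Acan 22, 53 and 64 reads (1.50), while Sp7 had 1407, 1501 and 750 (-0.91). In bulk RNA a change in the number of cells of a type and a change in RNA per cell cannot be told apart, and the part of these shifts in the ratios of the 10 enzymes was not tested.

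Most of these enzymes had more RNA in the stiff than in the soft library, none by as much as a doubling. In the stiff against soft comparison 9 of the 10 had a log2 ratio above 0, as did 51.1% of the 11873 genes averaging 50 or more normalized counts, and the median of the 10 was 0.35 against 0.0049 for all those genes. Loxl1, Loxl2 and Loxl4 were higher by at least 0.5 on the log2 scale, which is 3 of 10 members against 11.8% of genes, and no member was lower by as much, against 3.77% of genes. Loxl4, at 0.52, lay just inside this threshold, and Plod3 and P4ha2, both at 0.38, were the nearest outside it. P4ha1 and Plod2 were level between soft and stiff within counting error. Across genes the ratios also moved with transcript length and with GC content (Spearman correlations across 11655 genes, which are not replicates, of 0.26 and 0.26), and with that trend subtracted 0 of 10 members reached 0.5, against 7.69% of genes, while all 10 were above 0 and their median was 0.25. Loxl2 then stood at 0.4975.

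**Figure D1:**
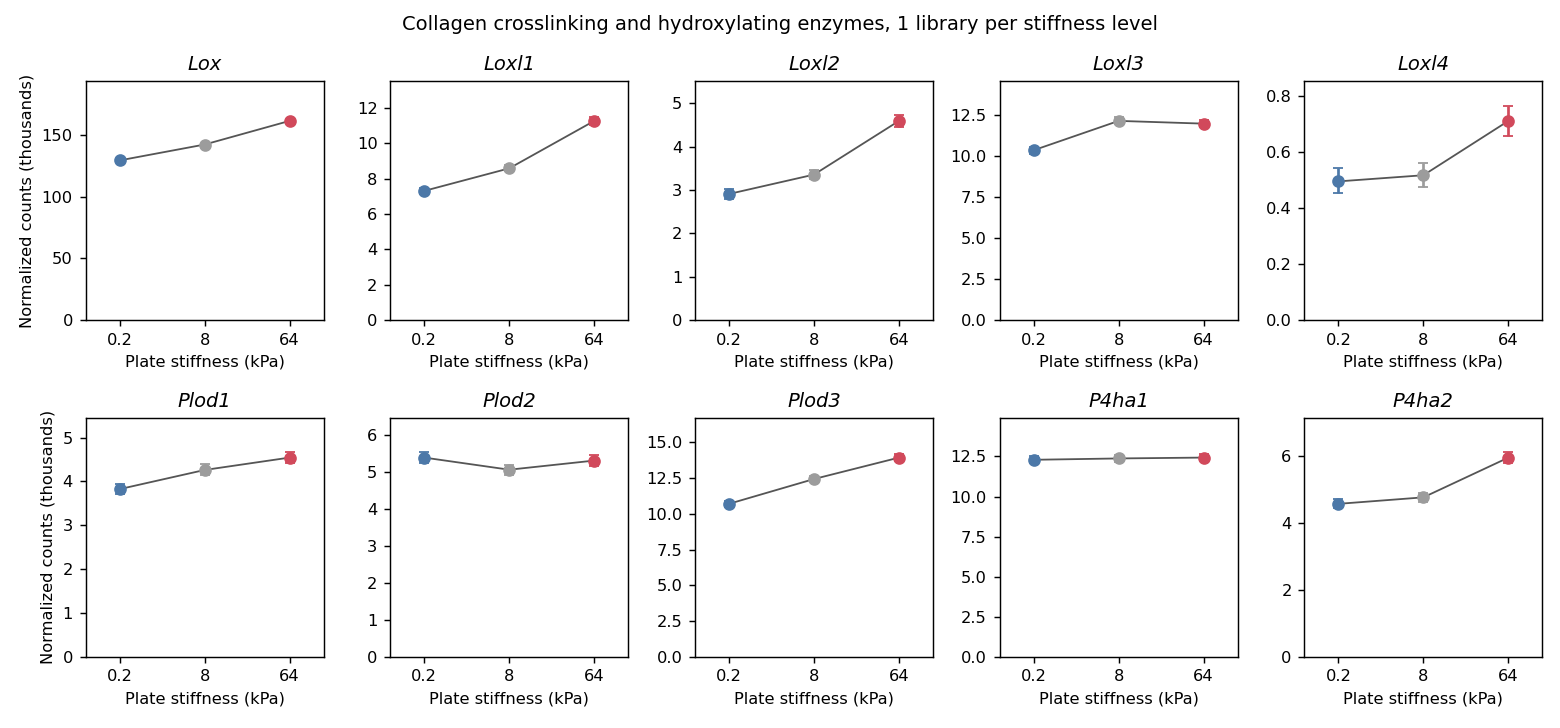
Normalized counts (linear axis from 0, divided as the axis label says) of the 10 enzymes against plate stiffness in kPa, 1 library per point, with exact 95% Poisson intervals for counting error. Loxl1, Loxl2, Loxl4 and P4ha2 climb mostly between 8 and 64 kPa, Loxl3 is level between 8 and 64 kPa within counting error, and P4ha1 is flat.

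The 2 prolyl 4-hydroxylase subunits differed from each other. P4ha1 had 12291 normalized counts at 0.2 kPa, 12375 at 8 kPa and 12429 at 64 kPa, and was level across them. Between stiff and soft its log2 ratio was 0.02 (95% counting interval -0.02 to 0.05). Counting intervals were computed by the exact Clopper-Pearson method from the reads of the 2 libraries, and cover counting error only. P4ha2 had 4568 at 0.2 kPa, 4762 at 8 kPa and 5950 at 64 kPa, so the stiff library stood apart from the other 2. Its ratio was 0.06 for intermediate against soft (interval 0.0014 to 0.12) and 0.32 for stiff against intermediate (0.27 to 0.38). The number of P4ha2 reads per P4ha1 read, which no scaling of the libraries can alter, was 1.29-fold higher in the stiff than in the soft library (log2 0.37, interval 0.30 to 0.43 from the standard error of the log ratio). It was 0.34 with the length and GC trend subtracted. Per kb of transcript P4ha1 was the higher of the pair in every library, at 4075, 4103 and 4121 normalized counts from soft to stiff against 2004, 2089 and 2611 for P4ha2. With P4ha3 included, the P4ha2 share of alpha subunit transcripts per kb was 31.0% at 0.2 kPa, 31.5% at 8 kPa and 36.3% at 64 kPa.

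The promoters of these 2 paralogs are shown as the 250 bases before the start site in RefSeq (GRCm38.p6). P4ha1 is at chr10:59323046-59323295 and P4ha2 at chr11:54100674-54100923, both on the plus strand. Whether these sequences bear on the RNA levels was not tested. Capitals mark ACGTG or GCGTG on either strand, the core of the element bound by HIF, a description of the letters and not of binding.
P4ha1: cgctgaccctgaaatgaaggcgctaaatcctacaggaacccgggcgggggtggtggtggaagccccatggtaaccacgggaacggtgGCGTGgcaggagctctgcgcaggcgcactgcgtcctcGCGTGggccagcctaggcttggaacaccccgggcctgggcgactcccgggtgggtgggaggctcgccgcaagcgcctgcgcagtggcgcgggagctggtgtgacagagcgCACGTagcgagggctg
P4ha2: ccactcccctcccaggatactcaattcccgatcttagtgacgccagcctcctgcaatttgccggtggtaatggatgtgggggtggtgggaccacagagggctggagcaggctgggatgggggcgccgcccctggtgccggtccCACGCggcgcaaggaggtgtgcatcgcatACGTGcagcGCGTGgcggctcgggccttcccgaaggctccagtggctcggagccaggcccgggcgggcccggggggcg
Each of the 2 held 3 matches, and 38.6% of the 32851 RefSeq promoters of the same length held at least 1. In both, 2 of the 3 matches were GCGTG. GC content was 69.6% for the P4ha1 stretch and 70.0% for that of P4ha2. The share over all promoters was matched neither for GC content nor for 3 matches, so no excess can be read from it. Of the 10 members, 5 had a promoter in that table: Plod3 had 4 matches, and Plod1 and Loxl4 had 1 each. The 6-base core GGAATG bound by TEAD factors and the AP-1 element TGANTCA, searched on both strands, had 0 matches in these 5 promoters, and 12.6% and 6.75% of all promoters held them.

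In the genome of the deposited counts (GRCm39), with positions from the GENCODE vM39 annotation, P4ha1 lies on chromosome 10 at 59159092 to 59209126 (plus strand, 15 exons in its canonical transcript) and P4ha2 on chromosome 11 at 53981553 to 54022494 (plus strand, 16 exons). The exons of both are free of overlap with other annotated genes.

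Among the lysyl hydroxylases Plod3 and Plod1 were higher in the stiff library and Plod2 was level. Plod3, which also carries glycosyltransferase activity toward hydroxylysine, had 10695 normalized counts at 0.2 kPa, 12430 at 8 kPa and 13930 at 64 kPa, a stepwise order. Its log2 ratio of stiff to soft was 0.38 (interval 0.34 to 0.42). Plod1, which acts mainly on lysines of the helix, had 3823, 4260 and 4543 in the same order of libraries, and a ratio of 0.25 (0.19 to 0.31). Subtracting the length and GC trend left 0.17 for Plod3 and 0.04 for Plod1. Plod2, which hydroxylates the telopeptide lysines that take part in stable crosslinks, was lowest in the intermediate library, with 5387, 5059 and 5306. Its ratio was -0.09 for intermediate against soft (-0.15 to -0.04) and -0.02 for stiff against soft (-0.08 to 0.03). Plod3 gained 0.40 on Plod2 between soft and stiff (0.34 to 0.47), but 0.10 with the length and GC trend subtracted, and the gain of Plod1 on Plod2 went from 0.27 to -0.03. Transcript GC content was 57.7% for Plod3, 52.0% for Plod1 and 43.3% for Plod2. Per kb, Plod3 made up 60.6% of the family at 0.2 kPa, 64.3% at 8 kPa and 65.6% at 64 kPa, and Plod2 27.2%, 23.3% and 22.3%.

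Plod1 lies on chromosome 4 at 147991574 to 148021356 (minus strand, 19 exons), Plod2 on chromosome 9 at 92424119 to 92490494 (plus strand, 20 exons) and Plod3 on chromosome 5 at 137015827 to 137025502 (plus strand, 19 exons). Of the Plod3 exon sequence 9.26% overlaps Znhit1 on the opposite strand, 7.82% of the Plod2 exon sequence overlaps the gene model B430319G15Rik, and whether the counting used strand is not given in the sources used here. Znhit1 had 1098, 1029 and 1127 normalized counts from soft to stiff, and B430319G15Rik had 40.0, 18.9 and 21.5. Each was below its partner in every library.

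**Figure D2:**
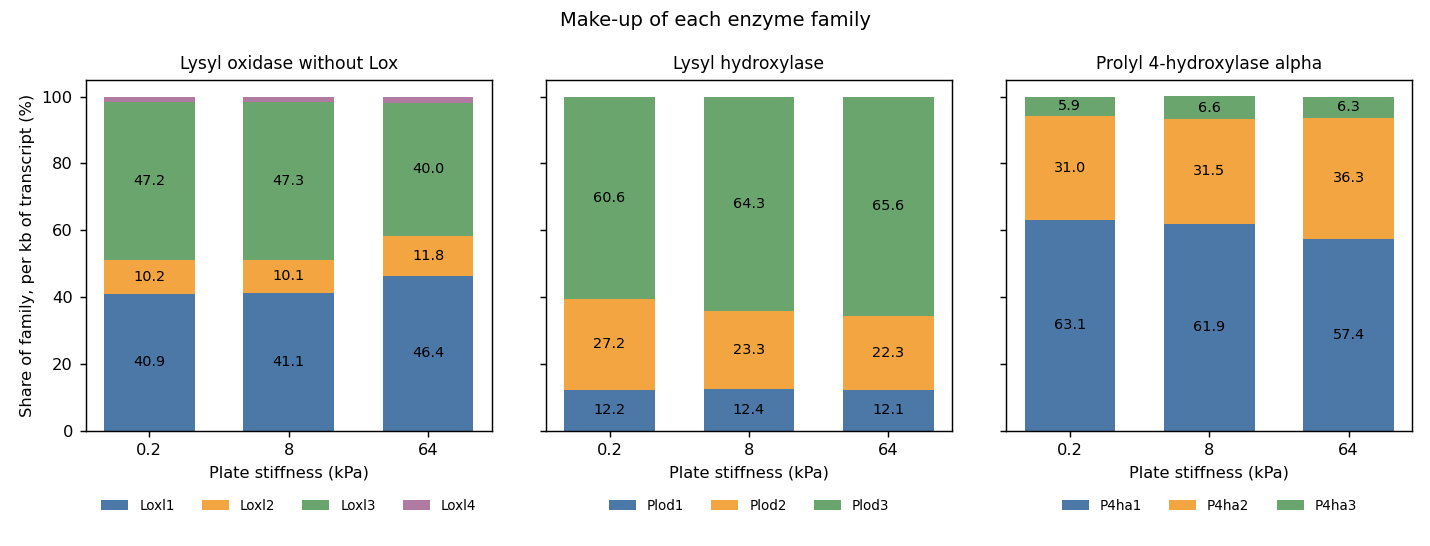
Share of each enzyme in its family (percent of normalized counts per kb of canonical transcript) against plate stiffness in kPa, 1 library per bar, with Lox left out of the first panel. P4ha2 takes 36.3% at 64 kPa against 31.0% at 0.2 kPa, and Loxl3 40.0% against 47.2%.

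Lox was by far the most abundant of the 10, with 129253 normalized counts at 0.2 kPa, 142120 at 8 kPa and 161274 at 64 kPa. By number of reads it ranked 8 among all genes at 0.2 kPa and 6 at both higher levels. Per kb of transcript it ranked 52, 42 and 34 from soft to stiff, among 11655 genes. It made up 83.5%, 82.6% and 82.2% of lysyl oxidase transcripts per kb, in the same order. Its log2 ratio of stiff to soft was 0.32 (interval 0.31 to 0.33), split into 0.14 and 0.18 over the 2 steps. With the length and GC trend subtracted it was 0.39.

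The other lysyl oxidases were far lower and changed unequally. Loxl1, which is known for its part in elastic fibre upkeep, had 7314, 8593 and 11279 normalized counts from soft to stiff. Its log2 ratio was 0.23 for the first step (interval 0.19 to 0.28), 0.39 for the second (0.35 to 0.43) and 0.62 over both (0.58 to 0.67). Loxl2, which crosslinks collagen IV of basement membranes among other substrates, had 2908, 3355 and 4594. Its ratios were 0.21 (0.13 to 0.28), 0.45 (0.39 to 0.52) and 0.66 (0.59 to 0.73), the highest of the 10 over the full range. Loxl4 had 483 reads at 0.2 kPa, 548 at 8 kPa and 693 at 64 kPa, the fewest of the 10. Its first step of 0.06 lay within counting error (-0.12 to 0.24), and the second was 0.46 (0.30 to 0.62). Over both steps, subtracting the length and GC trend left 0.40 for Loxl1 and 0.34 for Loxl4.

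Loxl3 followed another course. It had 10370 normalized counts at 0.2 kPa, 12163 at 8 kPa and 11994 at 64 kPa, so that the upper 2 levels were close together. Its log2 ratio was 0.23 for the first step (0.19 to 0.27) and -0.02 for the second (-0.06 to 0.02). Over both steps it was 0.21, and 0.13 with the trend subtracted. From intermediate to stiff, Loxl1, Loxl2 and Loxl4 gained 0.41 (0.36 to 0.47), 0.47 (0.40 to 0.55) and 0.48 (0.31 to 0.65) on Loxl3. From soft to intermediate the corresponding values were 0.00 (-0.06 to 0.06), -0.02 (-0.10 to 0.06) and -0.17 (-0.35 to 0.01). Over the full range the gains were 0.42, 0.45 and 0.31, and with the length and GC trend subtracted 0.27, 0.36 and 0.20. Against Lox the full gains of Loxl1, Loxl2 and Loxl4 were 0.31, 0.34 and 0.20, which became 0.02, 0.11 and -0.05 with the trend subtracted.

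Lox lies on chromosome 18 at 52649136 to 52663110 (minus strand, 7 exons), Loxl1 on chromosome 9 at 58195014 to 58220495 (minus, 7 exons), Loxl2 on chromosome 14 at 69846209 to 69933283 (plus, 14 exons), Loxl3 on chromosome 6 at 83011152 to 83029543 (plus, 14 exons) and Loxl4 on chromosome 19 at 42580711 to 42601252 (minus, 15 exons). Of the Loxl3 exon sequence 25.3% overlaps Htra2 on the opposite strand, and of that of Loxl2 17.1% overlaps R3hcc1. Htra2 had 1772, 1672 and 1528 normalized counts from soft to stiff, and R3hcc1 524, 510 and 561. Both were below their partner in every library.

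**Figure D3:**
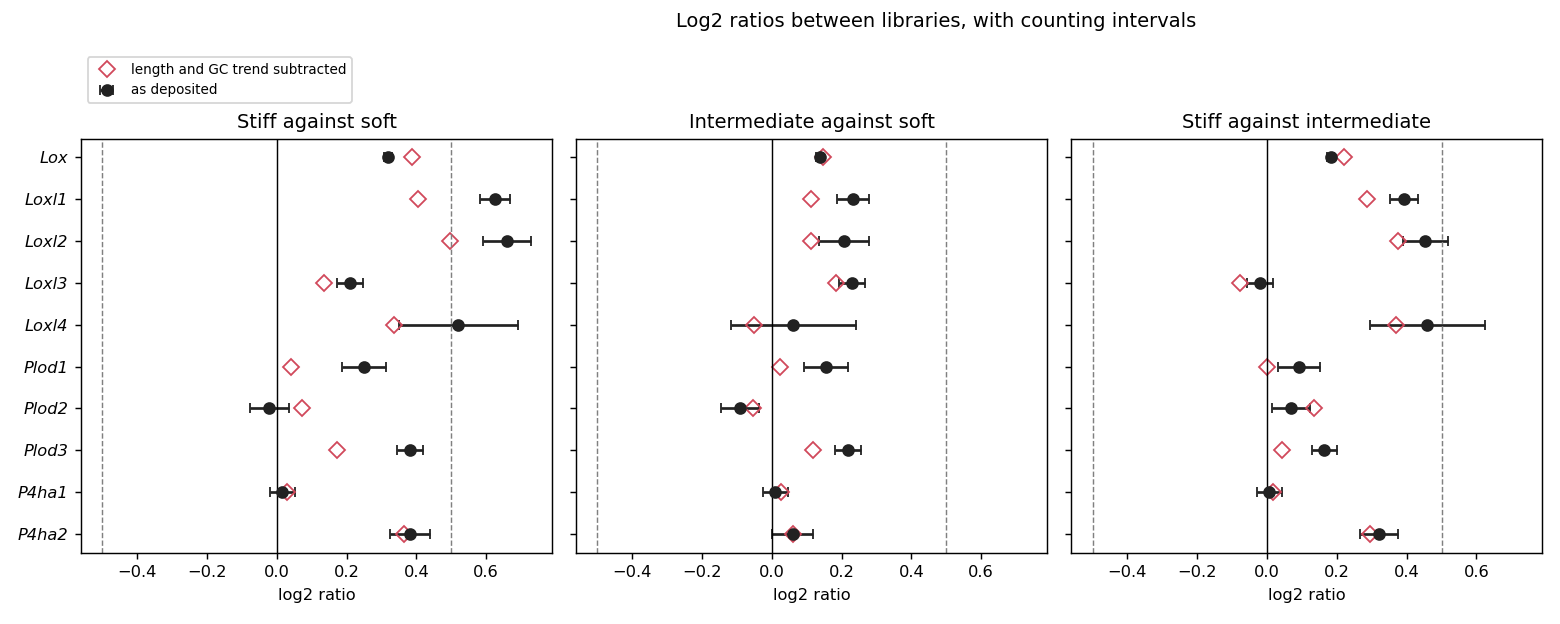
Log2 ratios of the 10 enzymes in the 3 comparisons, with 95% counting intervals (black) and with the length and GC trend subtracted (open red diamonds), dashed lines marking 0.5 in either direction. Loxl1, Loxl2 and Loxl4 pass 0.5 only for stiff against soft as deposited, and P4ha2, P4ha1 and Loxl4 have intervals or values near 0 in the first step.

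In single steps no member reached 0.5. Between intermediate and soft 0 of 10 were higher by at least 0.5, against 3.94% of genes, and 0 were lower, against 0.657%. Their median was 0.15, and Plod2 was the single member below 0. Between stiff and intermediate 0 of 10 were higher, against 5.42% of genes, and 0 lower, against 3.42%, with a median of 0.17 and Loxl3 the single member below 0. At least 0.25 in the same direction in each step was reached by 0 members upward, against 5.73% of genes, and 0 downward, against 0.707%. Loxl1, at 0.23 and 0.39, came nearest. The steps share the intermediate library, and each comparison with soft shares the soft library.

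By the distance over the log2 ratios of intermediate and stiff to soft, the genes most like Loxl2 among 11417 named genes were Serpinb2, an inhibitor of plasminogen activators, with a distance of 0.0088, Ranbp10 with 0.0097 and Mfhas1 with 0.014. Serpinb2 had 5613, 6498 and 8910 normalized counts. This likeness is over 2 ratios from 3 libraries.

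The remaining genes of collagen modification in the endoplasmic reticulum differed in both directions, mostly by small amounts. Of 14 listed genes 13 had a mean of at least 50, with a median stiff to soft ratio of 0.10, 8 above 0 and 5 below, and 1 was higher by at least 0.5 and 0 lower. Subtracting the length and GC trend turned the sign of the median, to -0.04, with 6 of 13 above 0. The lowest was Tmem38b, an endoplasmic reticulum potassium channel, at -0.41 (interval -0.52 to -0.30). The gene past 0.5 was P3h2, a prolyl 3-hydroxylase, with 38 reads at 0.2 kPa, 71 at 8 kPa and 66 at 64 kPa and a ratio of 0.78 (interval 0.20 to 1.41). P4hb, the protein disulfide isomerase that forms the beta subunit of the P4ha enzymes, had 58276, 57778 and 54374 normalized counts, a ratio of -0.10 (-0.12 to -0.08). P4ha3 had 910, 1058 and 1090, a ratio of 0.26 (0.13 to 0.39).

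Among genes of procollagen export and processing, 10 of 12 had a mean of at least 50, with a median of 0.19. Adamts2, which removes the amino-terminal propeptide, was the 1 gene higher by at least 0.5 between stiff and soft, at 1205, 1488 and 2010 normalized counts and a ratio of 0.74 (0.63 to 0.84). With the length and GC trend subtracted it was at 0.27, and 0 of the 10 genes reached 0.5. Adamts14, of the same family, reached 0.65 between stiff and intermediate on 42 and 61 reads (0.07 to 1.26), but not with the trend subtracted, where 0 of the 10 genes did. Bmp1, which cleaves the carboxy-terminal propeptide and also activates the Lox proenzyme, had 3076, 3382 and 3714, a ratio of 0.27 (0.20 to 0.34). Tll2, a relative of Bmp1, had 0 reads in each library.

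Of 9 lysyl oxidase partners and genes of copper supply, 2 were higher by at least 0.5. Fn1, the fibronectin that binds Lox, had 28877, 46177 and 61089 normalized counts and a ratio of 1.08 (1.06 to 1.10). Ltbp4, an elastic fibre assembly protein, had 322, 443 and 660 and a ratio of 1.03 (0.84 to 1.24). Subtracting the trend left 0.46 for Fn1 and 0.50 for Ltbp4. The copper transporters Atp7a and Slc31a1 and the copper chaperone Atox1 had ratios of 0.01, -0.12 and -0.14.

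Most substrates had higher ratios than the median enzyme, but not all. Of 8 fibril collagen and elastin genes 6 were higher by at least 0.5 in the stiff library, and the median was 0.61, against 0.35 for the enzymes. These were Col1a1 (0.95), Col5a1 (1.30), Col5a2 (0.64), Col5a3 (0.58), Col11a1 (0.53) and Eln (0.69, on 48 to 78 reads). Col1a2, at 0.28, and Col3a1, at 0.26, were below Lox, at 0.32. Only Col5a1 had a higher ratio than Col1a1 among the 8. Relative to Col1a1 reads, the stiff to soft log2 ratio was -0.63 for Lox (interval -0.65 to -0.61), -0.93 for P4ha1, -0.97 for Plod2, -1.05 for P4hb and -0.29 for Loxl2. With the length and GC trend subtracted they were -0.06, -0.41, -0.37, -0.62 and 0.05, so that the sign for Loxl2 turned, and the median of the substrates was 0.37 with 1 of 8 at 0.5 or more.

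**Figure D4:**
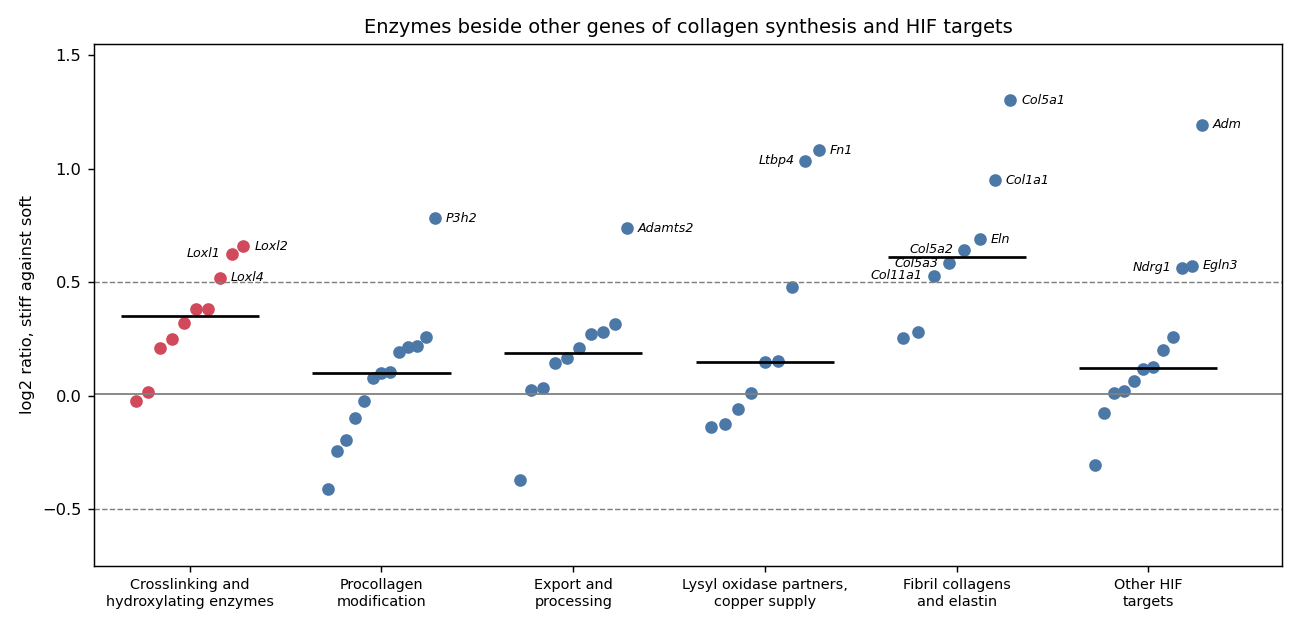
Log2 ratio of stiff to soft for the 10 enzymes (red) and for the genes of 5 other lists (blue) averaging 50 or more normalized counts, 1 point per gene, with bars at list medians, a grey line at the median of all genes (0.0049) and dashed lines at 0.5 in either direction. The enzymes have a median of 0.35, between 0.10 for other procollagen modification genes and 0.61 for fibril collagens and elastin.

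Of 12 HIF targets outside the 10 members, 3 were higher by at least 0.5 in the stiff library than in the soft and 0 lower, with a median of 0.12. Adm, a vasodilator peptide, had 1628, 1266 and 3728 normalized counts and a ratio of 1.19, Egln3, a HIF prolyl hydroxylase, a ratio of 0.57, and Ndrg1 a ratio of 0.56. Vegfa, the vascular growth factor, had a ratio of -0.56 for stiff against intermediate (interval -0.61 to -0.51). Its ratio of stiff to soft was -0.31. In all, 10 of the 12 were above 0 between stiff and soft, and Vegfa and Bnip3, at -0.08, were below. Ero1a was at 0.26, Pgk1 at 0.20, Car9 and Slc2a1 at 0.12, Ankrd37 at 0.06, Ldha at 0.02 and Pdk1 at 0.01. Subtracting the length and GC trend left 9 of 12 above 0, 2 of them at 0.5 or more, and a median of 0.16.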

How the data were processed

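Bulk RNA of 3 libraries, 1 per stiffness level, was sequenced from stranded mRNA libraries. The authors deposited a signal value per gene, a count divided by a size factor of the library; that this is a DESeq2 normalization comes from the name of the deposited file. The submitters' processing notes name STAR 2.7.9a, featureCounts of Subread 2.0.1, DESeq2 1.34.0 and GRCm39; the annotation is not given in the sources used here. The 3 deposited files were identical, and columns were assigned by the sample titles. In each column 100.0% of values were whole multiples, within 0.01, of that column's lowest value above 0, which gave back whole reads. From soft to stiff, 1 read was worth 1.03, 0.943 and 1.03 normalized counts. With 1 library per level no count test was possible, and no p-value is given.

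Log2 ratios used a pseudocount of 1 and so understate changes of low genes. A gene was counted as higher or lower at a log2 ratio of at least 0.5 in size and a mean of at least 50 normalized counts, which kept 11873 of 56833 genes and all 10 members. Canonical transcript lengths and GC contents came from GENCODE vM39 by symbol. The trend of the ratios with both was estimated by locally weighted linear regression on the 300 genes nearest in both. Ratios of 2 genes carry intervals from the standard error of the log ratio. The named genes are the 10 members, the genes of the 5 pathway lists (not of the cell markers) with a ratio of at least 0.5 in size in any comparison and a mean of at least 50, P4hb, P4ha3 and Bmp1, and the 3 genes nearest to the member with the largest ratio. Other genes were named after their values were seen. The members, lists and thresholds were chosen with earlier results of these data known. Calling and trend steps were tested on simulated data. The calling simulation held counting error only, with planted changes larger than those of the members. It could therefore not test differences between cultures. R 4.3.3 with edgeR 4.0.16 gave the TMM factors; the rest used scipy 1.17.1, pandas 2.3.3 and numpy 2.4.6 under Python 3.11.15.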

Additional observations from a re-analysis of the deposited data

How the results depend on the processing

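With the trend of length and GC content subtracted, 0 members reached a log2 ratio of 0.5 between stiff and soft, against 3 as deposited, and the medians of the members were 0.25 for stiff against soft and 0.086 for intermediate against soft. At a threshold of 0.25, 6 members passed between stiff and soft, 4 between stiff and intermediate, all of them higher, and 0 between intermediate and soft, against 38.9%, 28.7% and 18.3% of genes in either direction, and at a threshold of 1, 0 passed between stiff and soft, against 3.6% of genes in either direction. With the median of the members, scaling by total reads gave 0.29 for stiff against soft and 0.14 for stiff against intermediate, and scaling by the upper quartile gave 0.29 for stiff against soft. Loxl4 was then at 0.47 and 0.46, which left 2 members past 0.5, against 15.5% and 15.4% of genes in either direction, and P4ha1 took a ratio of -0.04 in both. With any step above 0 in the same direction counted, 8 members moved one way, all upward, against 55.8% of genes in either direction. Pseudocounts of 0.1 and 10, TMM scaling and minimum means of 10 and 200 changed none of the counts of members. Of 180 values of single members under the alternatives, 140 stayed inside the counting interval and 8 changed sign, all for Plod2, Loxl4 or P4ha1. The 140 were unevenly spread. Either pseudocount and TMM scaling each kept 30 of 30 values inside. Scaling by total reads and by the upper quartile each kept 20 of 30, and subtracting the length and GC trend kept 10 of 30. What caused these shifts was not tested. No replicate could be left out and no paired analysis was possible because each level had 1 library. Depth limits Loxl4, P3h2 and Adamts14. For Lox counting error is small, and the size of any difference between cultures is unknown.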
